A study of Mus musculus with 62 samples.

Results

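Brown adipose tissue of mice that had carried cachectic melanoma cells for 4 weeks (CAC) was compared with brown adipose tissue of mice that had carried non-cachectic melanoma cells for the same time (NCAC). The libraries were taken by the group and week in their labels, which gave 5 CAC and 5 NCAC libraries, 10 of the 62 libraries in the series. The series followed brown fat by RNA sequencing in 12 groups, made up of CAC, NCAC and mock-injected mice (Con) at 2, 4, 6 and 8 weeks after injection, and the 5 Con libraries of week 4 are set beside the tumour groups here. All mice in these groups were female and 2 months old by the labels, which name no transgene and no drug, and the extraction text refers to another tumour model. The sample labels give the strain as C57BL/6J, or C57BL6/J in another field, while the series text speaks of nude mice, so the host strain is not settled. The melanoma cells of the CAC and NCAC mice are not named in the labels, and wasting cannot be told apart from any other difference between the 2 kinds of tumour cell. The libraries are called biological replicates, with no statement of which animals they came from, so the p-values measure the spread between libraries. In the main fit that spread was pooled for each gene over all 12 groups, and not taken from these 10 libraries alone. The title number 56 appears in the labels of both CAC replicate 1 and Con replicate 1.

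Brown adipocytes burn fatty acids and glucose, and the uncoupling protein Ucp1 in their mitochondria turns that energy into heat. Cachexia is tumour-driven wasting of adipose and muscle tissue. Cytokines of the interleukin-6 family, among them interleukin-6 itself, oncostatin M and leukaemia inhibitory factor, act through receptors that share the subunit gp130 (Il6st) and activate the transcription factor Stat3. Stat3 raises the transcription of its own gene, of its feedback inhibitor Socs3 and, in liver, of the secreted acute phase proteins that increase in blood during inflammation. Complement is a cascade of secreted proteins that marks cells and microbes for uptake, and fat tissue makes several of its components.

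Levels are in TPM, a transcript abundance scaled to gene length and library total that keeps no sequencing depth, so counting errors could not be computed. Between 11309 and 11778 genes reached 1 TPM in the CAC libraries, against 11030 to 11548 in the NCAC libraries. The tissue label was borne out by Ucp1, at 3453 to 6642 TPM in CAC and 3571 to 9166 TPM in NCAC libraries. The 10 brown adipocyte markers summed to 25290 to 35210 TPM in CAC and 24230 to 31090 TPM in NCAC libraries. Within that sum Fabp4 averaged 16614 TPM in CAC and 13652 TPM in NCAC libraries. Transcripts of the mitochondrial genome took 55.9 ± 1.37% of TPM in CAC and 57.2 ± 1.70% in NCAC libraries (SD, n = 5 each; exact permutation test, two-sided p = 0.214, adjusted p = 0.429 over 2 library measures). CAC replicate 2 stood apart, at 55.7 on the second principal component of the 15 libraries of week 4, where the other 14 lay between -17.7 and 18.3. Con libraries stood apart on other components, replicate 4 at -62.7 on the first and replicate 3 at -49.8 on the third. Differences are given on the log2(TPM + 1) scale, CAC minus NCAC, with the standard error (SE) of limma and a Benjamini-Hochberg adjusted p. This scale understates the change of genes near or below 1 TPM.

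At 4 weeks 74 of 12581 genes passed the adjusted threshold of 0.05, and all 74 were higher in CAC (0.588% of the genes tested). The 74 were led by secreted acute phase and complement genes (Itih4, C4b, Hp, C4a, Lrg1), by the chemokine Ccl8 and by receptor and signalling genes of cytokine pathways (Csf2rb, Socs3, Osmr, Stat3). No gene passed as lower by limma, although 226 genes were lower and 1134 higher at an unadjusted p under 0.05 (1.8% and 9.01%). The median difference over all genes was 0.06, and after a median-of-ratios rescaling of the libraries 107 genes passed as higher and 14 as lower, with 72 of the 74 among them. In 66 of the 74 every CAC library lay above every NCAC library, an arrangement seen in 2.07% of all genes. The 74 were chosen by their differences in these same libraries, so this excess is a description and not a further test. The differences of the 74 ran between 0.33 and 5.02 with a median of 0.76, and 20 were above 1. The call depended on CAC replicate 2 for many of them: without that library 15 genes passed, all of them among the 74. They were Itih4, C4b, C4a, Hp, Lrg1, Ccl8, Csf2rb, Csf2rb2, Osmr, Stat3, Socs3, Il1r1, Vat1l, Grrp1 and Rasa4, and they also passed with any other single library of the 10 left out. The count was 47, 35 and 27 without NCAC replicates 1, 3 and 4. A fit on the 10 libraries alone, with the spread taken from these only, called 6 genes (C4b, Csf2rb, C4a, Rasa4, Lgi2 and Grrp1). Itih4, Hp, Lrg1, Stat3, Socs3, Osmr and Ccl8 did not pass in that fit.

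**Figure D1:**
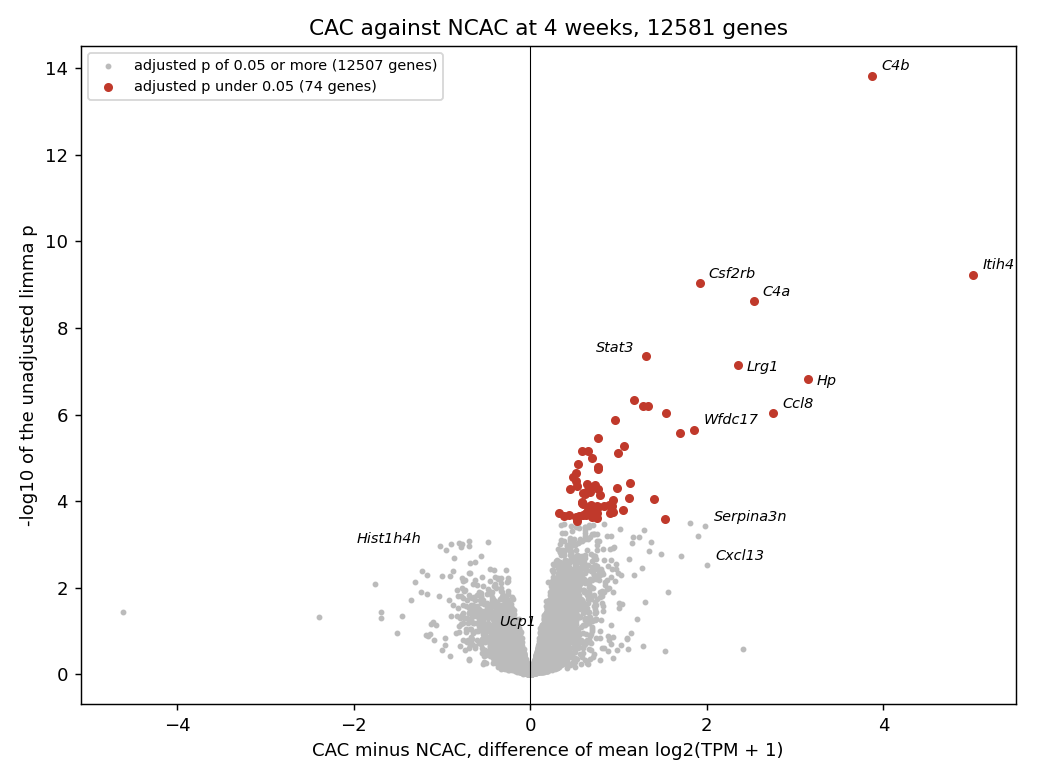
Difference between CAC and NCAC at 4 weeks (x axis, mean log2(TPM + 1), CAC minus NCAC) against -log10 of the unadjusted limma p (y axis), with 1 point per gene. The 74 genes past the adjusted threshold are red and all lie to the right of 0, with C4b and Itih4 highest.

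Of the acute phase and interleukin-6/Stat3 list, 7 of 31 tested genes passed, all as higher: Itih4, Itih3, Hp, Lrg1, Socs3, Stat3 and Osmr. Over all genes tested 0.588% passed as higher. The median difference of the list was 0.54, against 0.06 for all genes, and 28 of the 31 differences were positive. All the lists used here were drawn up with earlier results of these data known. The list counts and medians are therefore a description and not an independent test. Without CAC replicate 2 the list kept 6 calls with a median of 0.47, and in the fit on the 10 libraries it had 0 calls.

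Itih4 encodes a heavy chain relative of the inter-alpha-trypsin inhibitors, a secreted protein that in liver belongs to the acute phase response. The gene lies at chr14:30886476-30902353 on the plus strand (mm10 coordinates from GENCODE). Its level was 28.1, 812, 16.5, 296 and 21.0 TPM in CAC replicates 1 to 5, against 1.37, 1.15, 2.39, 1.47 and 0.772 TPM in the NCAC replicates. All 5 CAC libraries were high, replicates 2 and 4 by far the most, and the groups did not overlap. The difference was 5.02 (SE 0.67, adjusted p = 3.67e-06), the largest of the 74, and 4.17 without CAC replicate 2. Itih3, which encodes another member of that inhibitor family, had low levels, at 0.608 to 1.25 TPM in CAC and 0.185 to 0.396 TPM in NCAC libraries, with a difference of 0.53 (adjusted p = 0.0178).

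Haptoglobin (Hp), the plasma protein that binds free haemoglobin, is encoded at chr8:109575128-109579172 on the minus strand. Hp stood at 1010, 8995, 1588, 2030 and 892 TPM in CAC libraries, against 116, 365, 167, 322 and 211 TPM in NCAC libraries. The lowest CAC library was above the highest NCAC library, and CAC replicate 2 was far above the rest. The difference was 3.14 (SE 0.52, adjusted p = 0.000275) and 2.59 without that library. Lrg1, which encodes leucine-rich alpha-2-glycoprotein, a secreted acute phase protein, had 101, 443, 138, 181 and 82.2 TPM in CAC libraries, against 18.8, 67.7, 24.4, 36.6 and 20.1 TPM in NCAC libraries. Its groups did not overlap, and the difference was 2.35 (SE 0.38, adjusted p = 0.000152). Lbp, the lipopolysaccharide-binding protein of plasma, was at 2.30 to 16.6 TPM in CAC and 0.749 to 1.95 TPM in NCAC libraries, a difference of 1.40 (adjusted p = 0.0257). Lbp is not in the list counted above.

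Serpina3n, an inhibitor of serine proteases, had 51.2, 249.9, 26.9, 112 and 22.4 TPM in CAC libraries, against 17.8, 8.09, 6.57, 25.4 and 28.3 TPM in NCAC libraries. The groups overlapped, since CAC replicates 3 and 5 lay within the NCAC range. The difference was 1.98 (SE 0.52) and did not pass, with an adjusted p of 0.0563. It passed in 6 of 21 alternatives, among them rescaling, with adjusted p between 0.0176 and 0.547. Its reads may be shared with the neighbouring copies of this gene family. Lcn2, the iron-binding lipocalin 2, differed by 0.42 with an adjusted p of 0.899 and did not pass. Steap4, a metalloreductase named here after its values were seen, had 139.7 ± 39.7 TPM in CAC and 81.9 ± 11.4 TPM in NCAC libraries (SD, n = 5 each; limma adjusted p = 0.215).

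**Figure D2:**
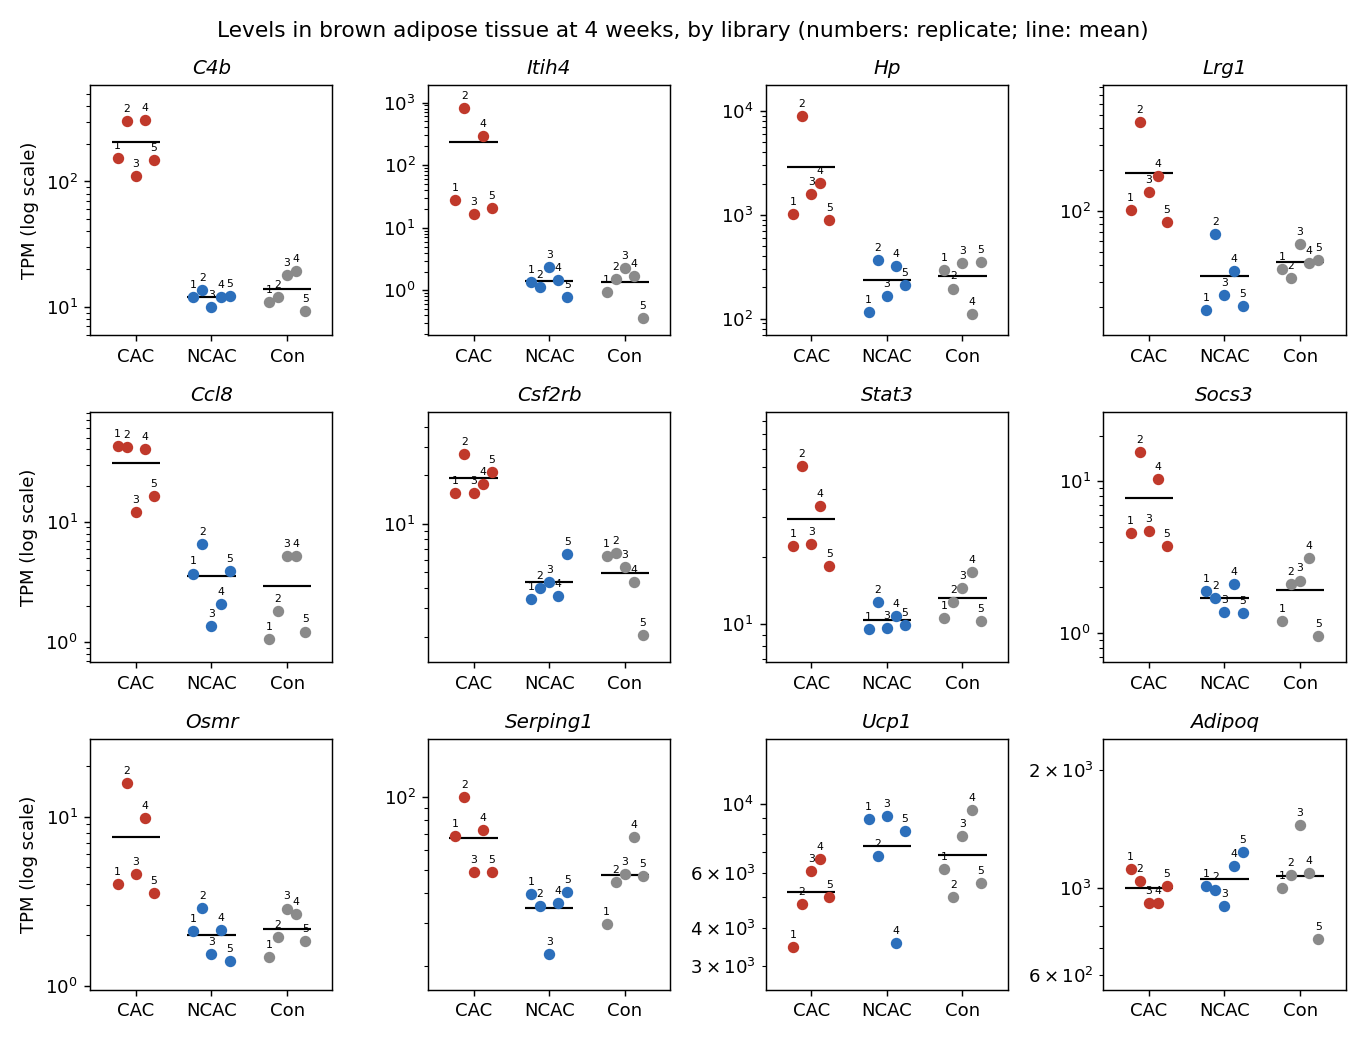
Level of 12 genes in each library of week 4 (y axes, TPM on log scales), for CAC, NCAC and Con; the numbers are replicates and the lines group means. The CAC points of C4b, Itih4, Hp, Lrg1, Ccl8, Csf2rb, Stat3, Socs3, Osmr and Serping1 lie above all NCAC points, while those of Ucp1 and Adipoq overlap.

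Among receptors and signalling proteins of the pathway, the oncostatin M receptor, its transcription factor and its inhibitor rose together. Osmr, at chr15:6813577-6874969 on the minus strand, encodes the subunit that pairs with gp130 to bind oncostatin M. It had 4.01, 15.9, 4.59, 9.86 and 3.51 TPM in CAC libraries, against 2.09, 2.87, 1.54, 2.13 and 1.39 TPM in NCAC libraries, a difference of 1.33 (SE 0.24, adjusted p = 0.000818). Stat3, at chr11:100885098-100939540 on the minus strand, had 22.4, 50.4, 22.7, 33.5 and 18.1 TPM in CAC libraries, against 9.56, 12.54, 9.59, 10.9 and 9.91 TPM in NCAC libraries, a difference of 1.31 (SE 0.21, adjusted p = 0.00011). Neither gene's groups overlapped, and the NCAC libraries were close to each other. Socs3, at chr11:117966079-117970047 on the minus strand, had 4.57, 15.6, 4.71, 10.4 and 3.73 TPM in CAC libraries, against 1.89, 1.71, 1.38, 2.11 and 1.36 TPM in NCAC libraries. Its difference was 1.54 (SE 0.28, adjusted p = 0.000987). Without CAC replicate 2 the differences were 1.04 for Osmr, 1.10 for Stat3 and 1.27 for Socs3, and all 3 passed.

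The other subunits of these receptors, named after their values were seen, did not pass. Il6st averaged 27.8 ± 4.70 TPM in CAC and 22.2 ± 3.03 TPM in NCAC libraries, and Il6ra, the interleukin-6 receptor, averaged 3.74 ± 2.84 TPM in CAC and 1.99 ± 0.708 TPM in NCAC libraries (SD, n = 5 each). Il6 itself averaged 0.02 TPM in both groups and was not among the genes tested. Sbno2, which encodes a transcriptional coregulator induced by interleukin-10 and Stat3 in macrophages, rose by 0.75 (adjusted p = 0.0377), with 22.3 to 34.0 TPM in CAC and 10.8 to 17.8 TPM in NCAC libraries.

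The promoters of Itih4 and Socs3 are shown because both genes were among the 15 named rises and their windows, 250 bases before to 50 after the RefSeq start, hold the letters TTCNNNGAA that Stat proteins are known to bind. Capitals mark the motif, which reads the same on both strands, and sequences are from RefSeq for GRCm38.p6. The Itih4 window is chr14:30886226-30886525 on the plus strand, with the motif starting 51 bases before the start. The Socs3 window is chr11:117969317-117969616 on the minus strand, with the motif starting 154 bases before the RefSeq start. By the GENCODE position given above, where Socs3 begins at 117970047, this whole window lies inside the gene.
Itih4: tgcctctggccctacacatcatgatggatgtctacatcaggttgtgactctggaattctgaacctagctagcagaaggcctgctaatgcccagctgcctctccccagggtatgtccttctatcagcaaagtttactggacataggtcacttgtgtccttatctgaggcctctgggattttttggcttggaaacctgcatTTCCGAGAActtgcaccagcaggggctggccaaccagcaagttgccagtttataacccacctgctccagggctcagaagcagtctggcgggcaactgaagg
Socs3: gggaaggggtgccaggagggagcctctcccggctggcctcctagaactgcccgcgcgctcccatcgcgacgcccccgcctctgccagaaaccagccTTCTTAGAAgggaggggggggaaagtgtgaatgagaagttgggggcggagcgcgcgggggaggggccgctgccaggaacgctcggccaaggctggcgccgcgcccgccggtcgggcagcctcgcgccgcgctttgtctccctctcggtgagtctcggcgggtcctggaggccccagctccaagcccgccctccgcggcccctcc
The same letters were in the windows of 9 of the 53 genes, out of the 74, that matched a promoter entry (16.98%). They were in 782 of the 9435 tested genes with an entry (8.29%) and in 2582 of 27025 genes of the whole table (9.55%). The other 7 of the 9 were Cpn2, Csf2rb2, Gimap8, Jmjd7, Sbno2, Slco2b1 and Tnip2. Of the 15 named rises 10 had an entry, and only Itih4 and Socs3 held the letters. The windows of Stat3, Osmr and Lrg1 did not. A match of letters is a description and not a measured binding site.

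Complement genes formed the other secreted group, with 3 of 20 tested genes called as higher (C4b, C4a and Serping1), against 0.588% of all genes tested. In this list 17 of 20 differences were positive and the median was 0.67, against a median of 0.06 for all genes. This list too was drawn up with earlier results of these data known. C4b encodes complement component 4, which is cleaved in the classical and lectin pathways, and lies at chr17:34728380-34743882 on the minus strand. It had 153, 304, 109.8, 309 and 148 TPM in CAC libraries, against 11.99, 13.8, 10.03, 11.9 and 12.1 TPM in NCAC libraries. The lowest CAC library was far above the highest NCAC library, and the NCAC libraries hardly differed among themselves. The difference of 3.87 (SE 0.37, adjusted p = 1.89e-10) had the lowest p of all genes and was 3.70 without CAC replicate 2. C4a, a near-identical neighbouring copy annotated at chr17:34809092-34823464, had 5.87 to 18.5 TPM in CAC and 0.453 to 1.98 TPM in NCAC libraries (2.53, adjusted p = 7.47e-06). How reads were divided between C4a and C4b is not given in the sources used here, so the C4a value is uncertain.

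Serping1, the inhibitor of the complement proteases C1r and C1s, rose by 0.92 (SE 0.22, adjusted p = 0.0303), with 48.7 to 100 TPM in CAC and 22.4 to 40.4 TPM in NCAC libraries. Cpn2, the regulatory subunit of a plasma carboxypeptidase that trims complement peptides, rose by 1.05 (adjusted p = 0.0345) and is not in the complement list. The recognition subunits C1qa, C1qb and C1qc and the central component C3, named after their values were seen, did not pass, with differences of 0.74, 0.83, 0.80 and 0.67 and adjusted p between 0.189 and 0.259. C3 averaged 826 ± 209.8 TPM in CAC and 510.1 ± 54.6 TPM in NCAC libraries (SD, n = 5 each). Without CAC replicate 2 the complement list kept 2 calls (C4b and C4a).

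Receptors for other cytokines were among the 74. Csf2rb, at chr15:78325752-78353847 on the plus strand, encodes the common beta subunit of the receptors for interleukin-3, interleukin-5 and GM-CSF. It had 15.6, 27.0, 15.6, 17.6 and 20.9 TPM in CAC libraries, against 3.43, 3.99, 4.34, 3.57 and 6.47 TPM in NCAC libraries. The groups were wide apart and the CAC libraries were close to each other, with a difference of 1.92 (SE 0.26, adjusted p = 3.89e-06). Its neighbour Csf2rb2, the interleukin-3-specific copy in mouse, had 2.04 to 6.60 TPM in CAC and 0.535 to 1.11 TPM in NCAC libraries (1.18, adjusted p = 0.000729), and the copies may share reads. Il1r1, the signalling receptor for interleukin-1, rose by 0.76 (SE 0.15, adjusted p = 0.00273), with 4.70 to 8.55 TPM in CAC and 2.44 to 4.05 TPM in NCAC libraries. Irak3, an inhibitor of interleukin-1 and Toll-like receptor signalling, rose by 0.99 (adjusted p = 0.0185).

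Of 12 chemokine and cytokine genes tested, only Ccl8 passed. Ccl8, a chemokine that attracts monocytes and other leukocytes, lies at chr11:82115185-82116799 on the plus strand. It had 42.5, 42.2, 12.2, 40.1 and 16.3 TPM in CAC libraries, against 3.73, 6.60, 1.37, 2.06 and 3.88 TPM in NCAC libraries, a difference of 2.75 (SE 0.50, adjusted p = 0.000987). CAC replicates 1, 2 and 4 were high and replicates 3 and 5 lower, yet still above every NCAC library. Cxcl13, a B cell attractant, was uneven, at 2.94, 83.1, 2.57, 21.3 and 1.12 TPM in CAC libraries against 0.866, 2.71, 0.322, 1.58 and 1.33 TPM in NCAC libraries, and did not pass (difference 2.00, adjusted p = 0.172). Ccl6 and Ccl9, named after their values were seen, differed by 1.34 and 1.12 with adjusted p of 0.115 and 0.144.

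Mrc1 was the only macrophage marker among the 74, and none of the 11 endothelial markers tested passed. Mrc1, the macrophage mannose receptor, rose by 0.90 (SE 0.22, adjusted p = 0.0377), with 6.64 to 15.8 TPM in CAC and 3.10 to 6.31 TPM in NCAC libraries. Wfdc17, a small secreted protein made by macrophages, had 14.3, 54.0, 8.36, 20.9 and 9.36 TPM in CAC libraries, against 3.01, 5.69, 2.55, 4.43 and 4.57 TPM in NCAC libraries (1.86, SE 0.35, adjusted p = 0.00202). Fcgr2b and Pirb, inhibitory receptors of myeloid and B cells, rose by 0.94 and 0.79. Some of the 74 that are in no list are known from vessels. Selp, the adhesion molecule P-selectin of endothelium and platelets, and Ackr1, a chemokine-binding receptor of venules, rose by 0.74 and 0.90, and Ecscr, an endothelial surface protein, rose by 0.70.

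All 14 tested macrophage markers had positive differences, with a median of 0.57, 1 call (Mrc1) and 7 at an unadjusted p under 0.05. Over all genes the median was 0.06, and 9.01% were higher at an unadjusted p under 0.05. Without CAC replicate 2 the list had 0 calls, 4 genes at an unadjusted p under 0.05 and a median of 0.45. Their summed level over 15 markers was 204.6 to 407 TPM in CAC libraries with a median of 297, against 122 to 252 TPM with a median of 196 in NCAC libraries, and none of them was at 0 in all 10 libraries. Neutrophil markers summed to 7.58 to 28.1 TPM in CAC and 5.40 to 13.4 TPM in NCAC libraries. Endothelial markers summed to 240.3 to 319.8 TPM in CAC and 186 to 288 TPM in NCAC libraries. None of the 11 endothelial genes was called, with 8 positive, 3 negative and a median of 0.29. Of these 11, 6 were higher at an unadjusted p under 0.05, and 4 were without CAC replicate 2. In bulk tissue a change in the number of cells of a type and a change in RNA per cell cannot be told apart. The part of these markers in the rises of Ccl8, Csf2rb, C4b and the other genes above was not tested. B cell markers had no call and 5 of 5 tested differences below 0, with sums of 5.92 to 28.2 TPM in CAC and 19.3 to 50.1 TPM in NCAC libraries. T and NK cell markers summed to 1.05 to 3.04 TPM in CAC and 1.02 to 3.18 TPM in NCAC libraries. The 10 melanoma markers, with Tyr at 0 in all 10 libraries, summed to 58.1 to 115.3 TPM in CAC and 58.8 to 107.8 TPM in NCAC libraries. Only 4 of these markers were tested, with no call. Their sum was 68.0 to 121.2 TPM in the mock-injected Con libraries, so it cannot be read as a level of tumour RNA.

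Of the 74 genes, 61 belong to none of the lists. Apod, a lipocalin that carries small lipids, had 12.8 to 100.6 TPM in CAC and 5.01 to 12.48 TPM in NCAC libraries (1.53, SE 0.39, adjusted p = 0.0439). Vat1l, a gene of little known function, had 17.03 to 55.9 TPM in CAC and 6.18 to 9.98 TPM in NCAC libraries (1.70, SE 0.32, adjusted p = 0.00224). Grrp1 had 6.56 to 13.4 TPM in CAC and 2.02 to 3.62 TPM in NCAC libraries (1.27, adjusted p = 0.000818). Tmem173, the gene of the DNA-sensing adaptor STING, rose by 1.06, the HDL receptor Scarb1 by 0.77 and the zinc transporter Slc39a1 by 0.54. Tapbp, the tapasin that loads peptides on MHC class I, was the 1 call among 16 antigen presentation genes (0.58, adjusted p = 0.0297), and that list's median was 0.08; without CAC replicate 2 Tapbp did not pass.

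**Figure D3:**
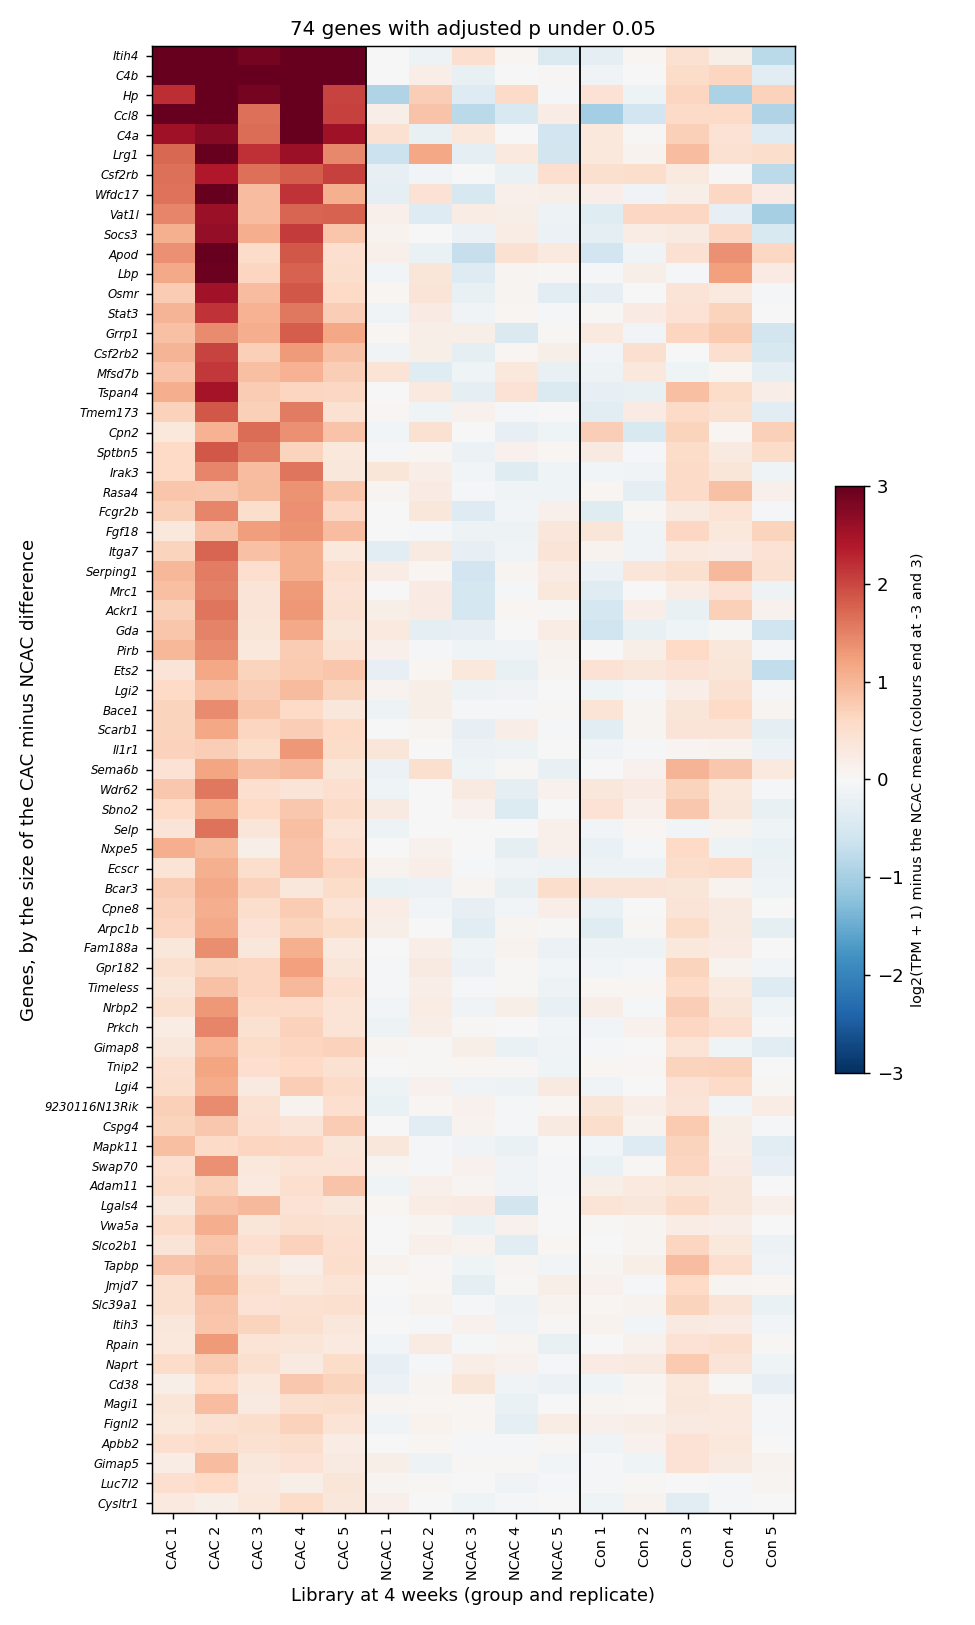
The 74 genes (rows) in the 5 CAC, 5 NCAC and 5 Con libraries of week 4 (columns), coloured by log2(TPM + 1) minus the NCAC mean. All CAC columns are mostly red, and that of CAC replicate 2 is the darkest; the colours end at -3 and 3.

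The CAC libraries differed among themselves in how far these genes lay above the NCAC mean. The median over the 74 was 0.66, 1.23, 0.56, 0.83 and 0.52 in CAC replicates 1 to 5, where the median over all genes was between -0.01 and 0.10. CAC replicate 2 was the highest of the 5 in 55 of the 74 genes and replicate 4 in 13. The acute phase list behaved likewise, with per-library medians of 0.71, 1.41, 0.22, 0.83 and 0.19 in CAC, against -0.18 to 0.11 in NCAC. The immediate early genes, which react within minutes to handling and stimulation, had a median of 2.36 in CAC replicate 2 and of -0.40 to 0.24 in the other CAC libraries, with none of 17 called. The nuclear receptor gene Nr4a1 was at 495.4 TPM in CAC replicate 2 and at 4.30 to 12.6 TPM in the other CAC libraries, against 1.84 to 94.6 TPM in NCAC libraries. Whether handling or tissue state of this library bears on the 74 genes was not tested.

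None of the 7 metallothionein and zinc genes and none of the 20 glucocorticoid response genes passed. Mt2, a metallothionein that binds zinc and copper, had 247.8, 2113, 161, 677 and 126 TPM in CAC libraries, against 153, 87.2, 133, 108 and 50.2 TPM in NCAC libraries (1.90, adjusted p = 0.0767, and 0.0198 to 0.744 over the alternatives, passing in 3 of 21). Fkbp5, a classic glucocorticoid target, had 6.37, 132.9, 8.33, 19.97 and 1.57 TPM in CAC libraries, against 5.44, 15.9, 1.06, 17.4 and 1.26 TPM in NCAC libraries (1.15, adjusted p = 0.602). Both genes were highest in CAC replicate 2. The median difference was 0.31 for the metallothionein and zinc list and 0.21 for the glucocorticoid list, against 0.24 and 0.01 without CAC replicate 2. Over the NCAC mean the metallothionein and zinc list was highest in CAC replicate 4, at 0.74, and stood at 0.58 in replicate 2.

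None of the 22 thermogenesis genes passed, and their median difference was -0.09, with 8 positive and 14 negative. Ucp1 had 3453, 4774, 6067, 6642 and 5024 TPM in CAC libraries, against 8940, 6778, 9166, 3571 and 8197 TPM in NCAC libraries. The groups overlapped because NCAC replicate 4 was nearly as low as the lowest CAC library, and the difference of -0.46 (SE 0.27, 95% interval -1.01 to 0.09) had an adjusted p of 0.582. Dio2, the deiodinase that activates thyroid hormone, Adrb3, the beta-3 adrenergic receptor, and Ppargc1a, a coactivator of mitochondrial genes, differed by -0.26, -0.71 and -0.20, with adjusted p of 0.932, 0.465 and 0.93. The 24 nuclear respiratory chain genes had a median of -0.01 and the 13 mitochondrial genome genes a median of -0.05, with no call.

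Fat storage genes gave no call either. Adiponectin (Adipoq) differed by -0.07 with a 95% interval of -0.33 to 0.18, and leptin (Lep) by -0.73 with an interval of -1.79 to 0.33. Pnpla2, the lipase that starts the breakdown of stored triglyceride, differed by 0.19 (interval -0.06 to 0.44), and Fasn, the fatty acid synthase, by -0.22 (interval -0.62 to 0.18). The 18 fatty acid synthesis genes had a median of -0.28, with 16 negative and no call, and a median of -0.14 without CAC replicate 2. Of 19 cholesterol synthesis genes 18 were negative, 9 at an unadjusted p under 0.05, with a median of -0.49. Over all genes 1.8% were lower at an unadjusted p under 0.05. Without CAC replicate 2 the median of the cholesterol list was -0.30 and none of the 19 was lower at an unadjusted p under 0.05. The lists of lipolysis, fatty acid oxidation, glycolysis, the tricarboxylic acid cycle, unfolded protein response, integrated stress response and autophagy had medians between -0.06 and 0.17 and no call. The interferon response had a median of -0.18 and no call among 26 genes.

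**Figure D4:**
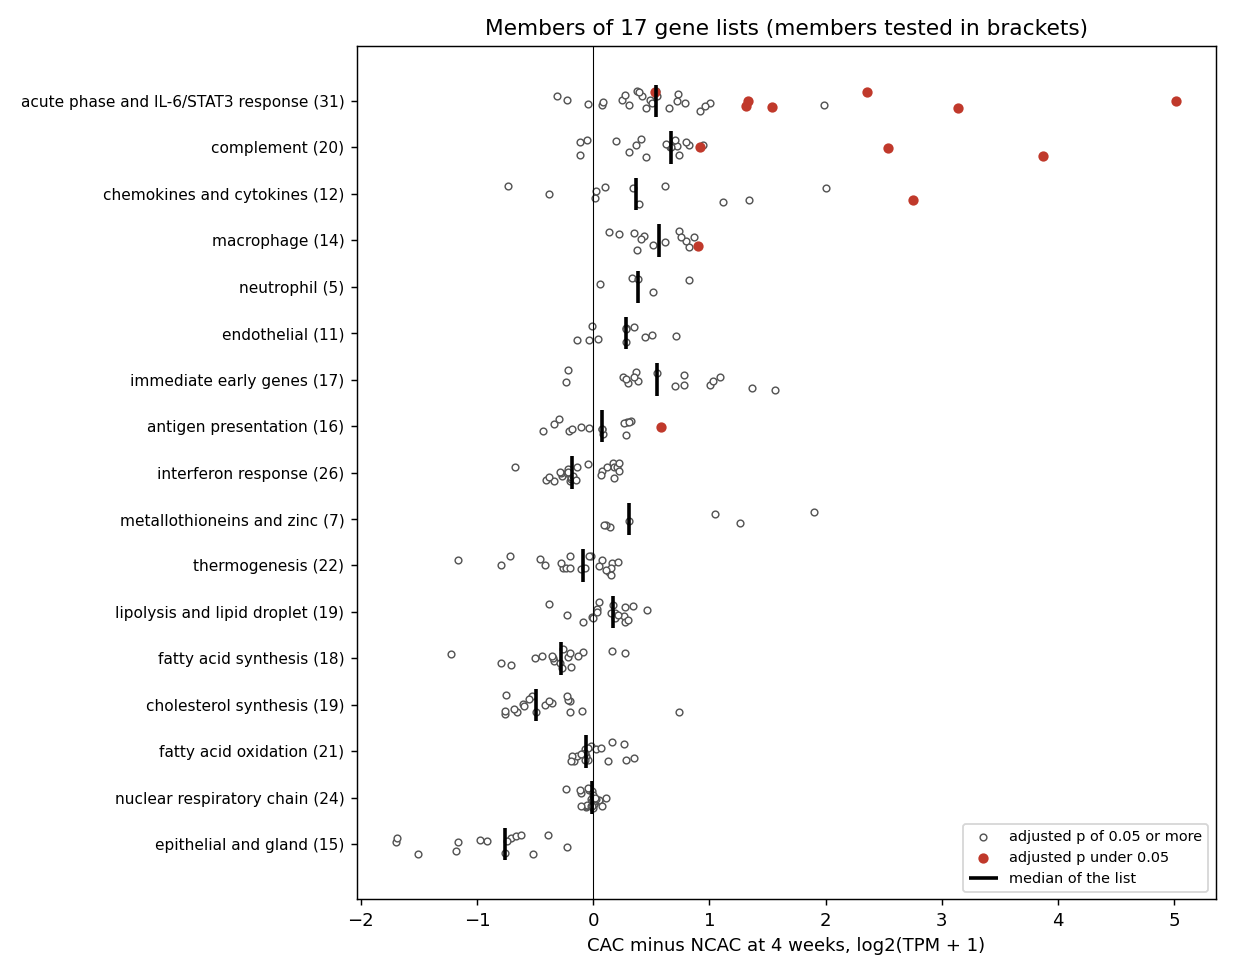
Differences between CAC and NCAC at 4 weeks for the tested members of 17 of the lists (x axis, mean log2(TPM + 1), CAC minus NCAC); each point is a gene, red where it passed, and the bar is the list median. Red points occur only in the acute phase, complement, chemokine, macrophage and antigen presentation lists, all to the right of 0.

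The genes lowest in CAC did not pass. The 5 with the lowest p at 5 TPM or more were Morn2 (-0.48), the cell cycle inhibitor Cdkn1c (-0.77), Gchfr (-0.70), the histone gene Hist1h4h (-1.03) and Tm6sf1 (-0.56), with adjusted p between 0.0903 and 0.131. Of these, Morn2, Cdkn1c, Gchfr and Hist1h4h were among the 14 that passed as lower after rescaling. Gchfr, a regulator of tetrahydrobiopterin synthesis, averaged 181.5 TPM in CAC and 279 TPM in NCAC libraries. All 15 tested epithelial and gland markers were negative with a median of -0.76 and no call, and their sums were scattered, at 0.812 to 164.5 TPM in CAC and 10.7 to 185 TPM in NCAC libraries.

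The same difference at the other weeks, from 5 libraries against 5 at weeks 2 and 6 and 7 against 5 at week 8, was read for the 74 genes. Of the 74, 3 passed as higher at 2 weeks (C4b, Csf2rb and Adam11, where 0.0397% of all genes did), 65 at 6 weeks (5.82%) and 74 at 8 weeks (37.3%). Their median difference was 0.39, 0.76, 1.02 and 1.13 at weeks 2, 4, 6 and 8, against 0.11, 0.06, 0.07 and 0.21 for all genes. The background of calls moved with the scaling: at 6 weeks 732 genes were higher and 245 lower, against 704 and 638 after rescaling, and at 8 weeks 4698 were higher and 249 lower, against 1604 and 1501 after rescaling. C4b differed by 2.22, 3.87, 3.65 and 5.37 at the 4 times and Csf2rb by 1.52, 1.92, 1.90 and 2.31. Itih4 differed by 1.57, 5.02, 7.29 and 8.07, Hp by 0.96, 3.14, 4.56 and 4.40, and Stat3 by 0.56, 1.31, 1.52 and 1.79. At 2 weeks C4b and Csf2rb passed with an adjusted p of 0.0018 each, while Itih4, Hp and Stat3 did not. Since the 74 were chosen by their week 4 values, their smaller differences at 2 weeks are a description.

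**Figure D5:**
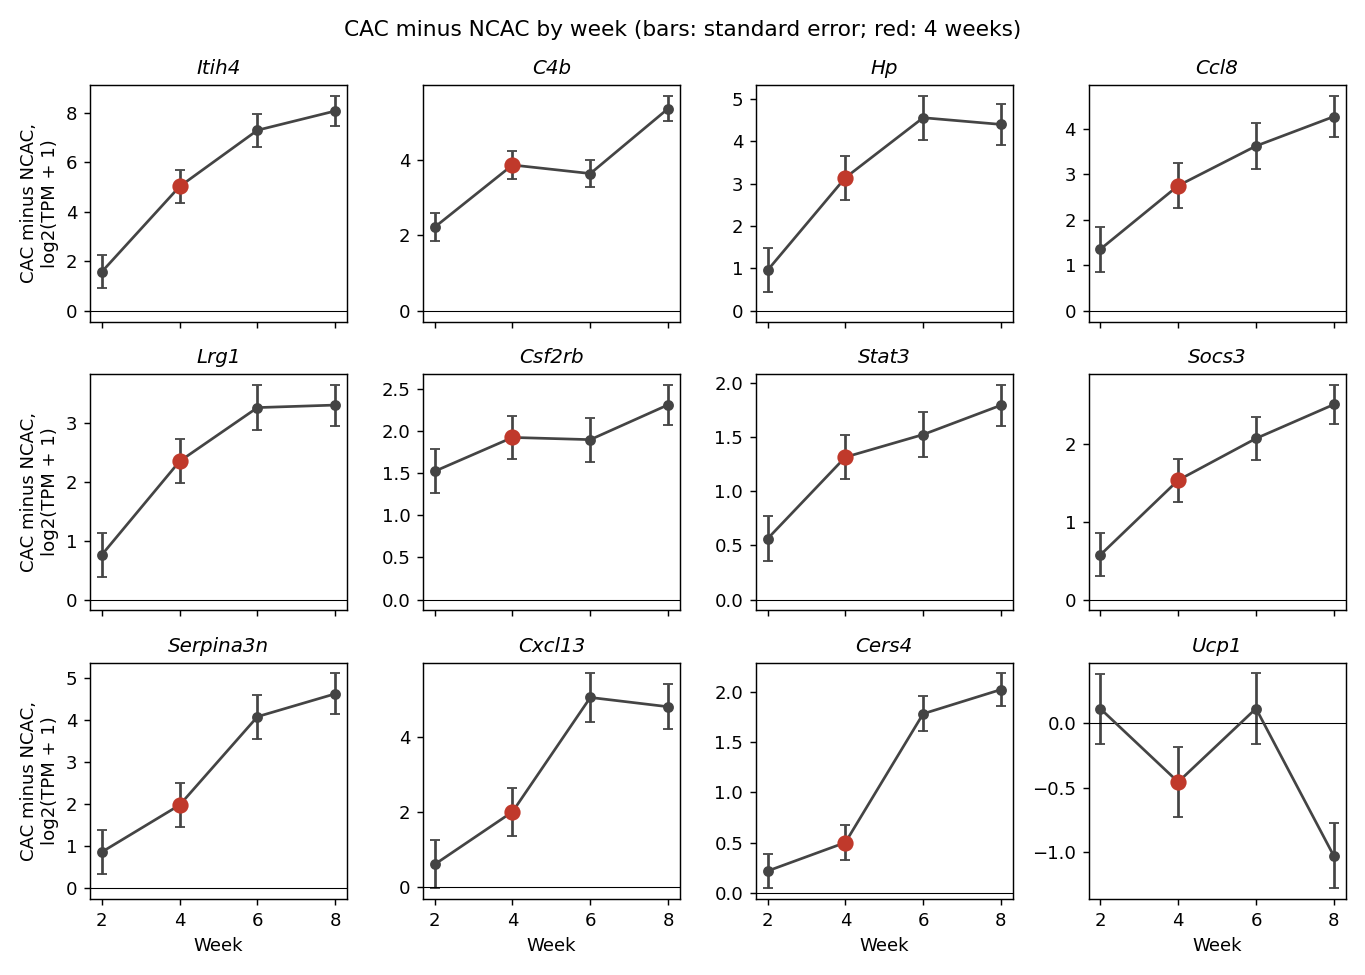
Difference between CAC and NCAC in mean log2(TPM + 1) (y axis) at 2, 4, 6 and 8 weeks (x axis) for 12 genes, with bars of 1 SE and week 4 in red. C4b and Csf2rb already stand above 0 at 2 weeks, the points of Serpina3n and Cxcl13 are higher at 6 and 8 weeks than at 4 although neither change passed (adjusted p = 0.104 to 0.821), and Ucp1 is lowest at 8 weeks.

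The change of the difference between times was tested as an interaction. None of the genes passed for 4 against 2 weeks by limma, with 458 at an unadjusted p under 0.05. For 4 against 6 weeks 1 gene passed (0.00795%), Cers4, a ceramide synthase, with 2.64 TPM in CAC and 1.55 TPM in NCAC libraries at 4 weeks and 7.85 TPM in CAC and 1.52 TPM in NCAC libraries at 6 weeks (-1.28, SE 0.25, adjusted p = 0.0384). For 4 against 8 weeks 29 genes passed, all with a lower difference at 4 weeks (0.231%), and none of them was among the 74. The median of this change over all genes was -0.15, and after rescaling 18 genes passed, all lower. These counts moved with single libraries of week 4: for 4 against 8 weeks the count was 222 without CAC replicate 2 and 4 without CAC replicate 3, and the call of 4 against 6 weeks was lost when any of 8 of the 10 libraries was left out. The 29 genes included the protease inhibitors Serpina3k (-3.48, adjusted p = 0.0348) and Serpina3m (-2.62). Also among them were Serpina3h (-2.05), annotated as a transcribed pseudogene, the granule protease Prtn3 (-2.68, adjusted p = 0.000535), Tmem252 (-2.11) and Cers4 (-1.52). Prtn3 averaged 3.30 TPM in CAC and 1.01 TPM in NCAC libraries at 4 weeks, and 22.2 TPM in CAC and 0.466 TPM in NCAC libraries at 8 weeks. Ucp1 differed by 0.11, -0.46, 0.12 and -1.03 at the 4 times, passing at 8 weeks (adjusted p = 0.00125), and its change between 4 and 8 weeks did not pass (adjusted p = 0.47).

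Against mock-injected mice of the same week, 484 genes passed in CAC, 103 higher (0.819%) and 381 lower (3.03%). The balance depended on the scaling: after rescaling 406 were higher and 287 lower, and without the mitochondrial genome 556 were higher and 200 lower. In the same comparison with Con, 1 gene passed in NCAC, the predicted gene Gm7293, with a difference of -0.98 (adjusted p = 0.0127; 0.00795% of the genes tested). These comparisons share libraries with the main one and with each other. In Con replicates 3 and 4 the mitochondrial genome took 39.6% and 39.7% of TPM, against 57.1 to 58.7% in the other Con libraries, and without those libraries 80 genes passed as higher and 1 as lower in CAC. The Con libraries also varied widely in skeletal muscle RNA. The 22 muscle markers summed to 657.4 to 25010 TPM in Con, 2366 to 4061 TPM in CAC and 1449 to 5064 TPM in NCAC libraries. With each library left out the CAC count ran between 65, without CAC replicate 2, and 948, without Con replicate 2, and the NCAC count was 249 without Con replicate 2 and 516 without Con replicate 5. In 27 of the 74 genes every CAC library also lay above every Con library, against 0.906% of all genes. The 74 were chosen for high values in these same CAC libraries, so the excess is not an independent check. C4b was at 9.19 to 19.3 TPM in Con libraries, Itih4 at 0.366 to 2.24, Hp at 112 to 350.3, Lrg1 at 32.3 to 57.1, Stat3 at 10.3 to 17.1 and Socs3 at 0.956 to 3.11. For all of these the lowest CAC library lay above the highest Con library.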

How the data were processed

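RNA was extracted with Trizol and sequenced from TruSeq stranded mRNA libraries on a NovaSeq instrument, per the labels' protocols. The deposited table holds the authors' TPM for 47643 gene symbols in 62 libraries, on the build mm10 per the submitters' processing notes; the aligner and the counting are not given in the sources used here. Depth is unknown, so no counting interval could be given. Groups came from the labels. A gene was tested where 5 or more libraries reached 1 TPM (12581 genes), and limma 3.58.1 in R 4.3.3, with a trended prior, was fitted on log2(TPM + 1) over all 12 groups, with Benjamini-Hochberg adjustment within each contrast and a threshold of 0.05. The fit was tested on simulated data. Single values per library were compared by exact permutation tests. The members, lists and rules were chosen with earlier results of these data known. Genes were named by a rule: the 15 largest rises and falls at 5 TPM or more, up to 4 called or the 2 most abundant members of each of 36 lists, a panel of 20 genes, and the 5 highest and lowest interactions. Genes outside it are said to be chosen after their values were seen, except that any of the 74 may be named. Positions are from GENCODE vM21. Alternatives tried were another pseudocount, filters, scalings, library weights, covariates, fits on fewer libraries, each library left out and a replicate block; the list counts without CAC replicate 2 and on the 10 libraries alone were chosen after seeing the data.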

Additional observations from a re-analysis of the deposited data

Results flagged for a closer look

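In 258 groups of 5 libraries looked at, chiefly CAC or NCAC for the called genes and many other named ones, a single library stood far apart in 22 (8.53%). Chance alone gives about 1 in 20 for independent groups, but many of these genes were chosen on the same libraries. CAC replicate 2 was the library apart in 11. It was the highest for Mfsd7b (27.1 TPM), Jmjd7 (8.61), Slc39a1 (74.7), Tnip2 (10.9), Scarb1 (28.8), Swap70 (17.2), Tspan4 (111.2), Rpain (7.86), Nrbp2 (143.6) and Nr4a1 (495.4), and the lowest for Tm6sf1 (2.46 TPM). CAC replicate 4 was the highest for Il1r1 (8.55 TPM) and Rasa4 (9.07 TPM). Among NCAC libraries, replicate 3 was the lowest for Serping1 (22.4 TPM), Ackr1 (1.29), Ccl6 (4.15) and Ccl9 (1.77), and replicate 4 was the lowest for Grrp1 (2.02 TPM), Magi1 (0.884) and Lgals4 (10.7). NCAC replicate 5 was the lowest for Mt1 (229.9 TPM), and NCAC replicate 2 was the highest for Cox8b (3217 TPM).

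The difference between CAC and NCAC was itself smaller at 4 weeks than at a later week for 6 named genes. Between 4 and 6 weeks this was Cers4 (-1.28). Between 4 and 8 weeks the changes were -3.48 for Serpina3k, -2.68 for Prtn3, -2.62 for Serpina3m, -2.11 for Tmem252, -2.05 for Serpina3h and -1.52 for Cers4. Serpina3k, Serpina3m and Serpina3h are near copies that may share reads.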

How the results depend on the processing

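The count of 74 was 48 with no filter on low values, 121 after rescaling, 129 without the mitochondrial genome (115 higher), 126 with library weights (120 higher), 6 with the 10 libraries alone and 3 with a replicate block. Lower calls numbered 14 after rescaling, 15 after quantile scaling, 14 without the mitochondrial genome, 6 with weights, and 1 each without Con replicates 3 and 4 and with a muscle covariate. Leaving out each library gave 15 to 107 calls, 15 to 106 higher and 0 to 2 lower. The count was 15 without CAC replicate 2, and 47, 35 and 27 without NCAC replicates 1, 3 and 4. The 484 calls of CAC against Con (103 higher, 381 lower) were 756 without the mitochondrial genome (556 higher, 200 lower), 693 after rescaling (406 higher, 287 lower), 3 with those groups alone, 1 with the block, 81 without Con replicates 3 and 4, 162 with weights and 65 to 948 with each library left out. The 1 call of NCAC against Con was 2 with no filter and without the mitochondrial genome, 0 after quantile scaling, with those groups alone, the block, weights or without Con replicates 3 and 4, and 0 to 516 with each library left out. The 1 gene of 4 against 6 weeks was 0 with the other pseudocount, either filter, those groups alone or the block, 168 with weights and 0 to 2 with each library left out. The 29 genes of 4 against 8 weeks were 3 with the other pseudocount, 14 at 5 TPM, 18 after rescaling, 12 after quantile scaling, 4 without the mitochondrial genome, 0 with those groups alone or the block, 2908 with weights and 4 to 222 with each library left out. The causes were not tested.

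Of 53 named genes that did not pass, 10 passed under some alternative. C4b and Csf2rb passed in every setting run, and no called gene reversed. With weights the difference changed sign from the main fit for Fasn (0.0732), Lcn2 (-0.0267), Fkbp5 (-0.14), Cyp2b10 (-0.26) and Serpina3k (-0.28). In the main fit Cyp2b10 differed by 1.28 (SE 1.04, limma adjusted p = 0.712), with 3.29 to 258 TPM in CAC and 2.18 to 68.6 TPM in NCAC libraries. With each library left out the difference was -0.41 to 1.59 for Nr4a1, -0.55 to 0.0707 for Ppargc1a and -0.14 to 0.28 for Serpina3k. It was -0.64 to 0.10 for Dio2 and -0.0126 to 0.83 for Lcn2. The mitochondrial share difference was -1.80 to -0.615 percentage points and the muscle list difference, 0.17 (exact permutation p = 0.69), was -0.099 to 0.37. The replicate numbers were not taken as pairs, since the labels tie them to nothing shared and same-numbered CAC and NCAC libraries correlated by -0.04 to 0.41, not all above 0.1. As a hint from the data, 3 of 5 CAC and 2 of 5 NCAC libraries correlated best with their own number.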
